A study of Homo sapiens with 24 samples.

Results

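C4-2B cells that had received a control siRNA were compared with C4-2B cells that had received the solvent DMSO. These are the control cultures of a gene-silencing experiment and of an inhibitor experiment on EZH2, a histone methyltransferase, so the comparison asks how far 2 kinds of control differ when neither was aimed at EZH2. It covered 13789 genes out of 20042 with a probe on the array, chosen as those with a detection p-value under 0.05 on at least 3 of the study's 24 arrays, and it rested on 6 arrays. The siControl cultures (3 arrays) were transfected with the control siRNA for 3 days, and the DMSO cultures (3 arrays) were treated with DMSO for 3 days. The other C4-2B cultures received an siRNA against EZH2 (siEZH2, 3 arrays) or 1 µM EPZ6438, an inhibitor of EZH2 activity (3 arrays), also for 3 days. LNCaP cultures came in the same 4 groups of 3 arrays. LNCaP is an androgen-dependent line from a lymph node metastasis of prostate cancer, and C4-2B is a line of the LNCaP lineage that grows with little androgen. All cultures were kept in RPMI medium with fetal bovine serum.

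The amounts of siRNA and DMSO and the transfection reagent were not given in the sources used here. The siControl and DMSO cultures differed in the transfection, the siRNA, the solvent and the experiment they belonged to, and the parts of these in any difference cannot be told apart. The labels number the DMSO and EPZ6438 arrays 1 to 12 and the siRNA arrays 13 to 24, and give no chip or scan. They do not say whether the 3 arrays of a group came from separate cultures. A p-value here speaks only of the scatter among arrays within groups, pooled over the 8 groups of the study, and that scatter may be technical.

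Cells that lack amino acids or meet stress in the endoplasmic reticulum raise the transcription factor ATF4, which switches on genes for amino acid synthesis, amino acid import and tRNA charging. Cells that enter the cell cycle use E2F factors to switch on the genes that copy DNA, and later FOXM1 and its partners to switch on the genes of mitosis. Prostate luminal cells answer androgen through its receptor by making secreted proteins such as PSA, encoded by KLK3.

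Values are log2 intensities after background correction and quantile normalisation, so a difference of 1 is a 2-fold change, and differences are siControl minus DMSO with the standard error of the fit. A gene was called when limma's moderated test gave a Benjamini-Hochberg adjusted p under 0.05 over all genes tested. On the siControl arrays 19607 to 20449 of 47311 probes were detected, against 19326 to 20933 on the DMSO arrays. The arrays of both groups correlated within their group at r of at least 0.988 over the genes tested. DMSO replicate 3 stood somewhat apart from the other DMSO arrays (r of 0.988 and 0.991, against 0.995 between replicates 1 and 2). The line gave the first principal component of the 24 arrays (44.5% of the variance). On the second (20.9%), siControl arrays lay at 21.9 to 27.4 and DMSO arrays at −30.2 to −24.4.

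The luminal keratins KRT8 and KRT18 were detected on all 6 arrays and were not called, with 7.90, 7.97 and 8.15 in siControl cultures, against 8.13, 8.29 and 8.15 in DMSO cultures for KRT8, and 6.43, 6.72 and 6.71 in siControl cultures, against 6.40, 6.48 and 7.02 in DMSO cultures for KRT18. Of all 21 measured luminal markers, however, 12 were called lower (57.1%) and 1 higher (4.76%), against 21.1% and 19.0% of all genes, as given further on. EZH2, the gene targeted elsewhere in the study, had levels of 7.58, 7.25 and 7.76 in siControl cultures, against 7.15, 7.33 and 7.18 in DMSO cultures. It was not called (difference 0.31 ± 0.16, adjusted p = 0.126). It was called with the mean of its probes (0.52, adjusted p = 0.000501) and without siControl replicate 2 (0.45, adjusted p = 0.0395). Few markers of other cell types could be tested: 14 of 22 fibroblast markers, 8 of 18 blood markers, 2 of 8 endothelial markers, 3 of 12 basal markers and 6 of 15 neuroendocrine markers passed the filter. VIM, a mesenchymal marker that epithelial lines can also express, had 9.07, 8.95 and 9.17 in siControl cultures, against 8.99, 9.14 and 9.18 in DMSO cultures, and was not called (adjusted p = 0.807). The mean level of the fibroblast markers was 5.14 to 5.27 on siControl arrays and 5.40 to 5.43 on DMSO arrays, and that of the blood markers 4.72 to 4.99 and 4.72 to 4.92. DCN and FN1 of the fibroblast list, ITGAM of the blood list and CHGA of the neuroendocrine list were detected on none of the 6 arrays. In such bulk RNA fewer cells of a type and less RNA per cell cannot be told apart.

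In all, 5537 genes were called (40.2% of those tested), of which 2626 were higher in siControl cultures (19.0%) and 2911 lower (21.1%). Centring the arrays on the median of all probes, in place of quantile normalisation, left 1688 higher and 751 lower, so the balance between the directions depends on the scaling. Centring on the detected probes gave 2275 higher and 2600 lower and moved the median difference of all genes from −0.01 to −0.13. At 2-fold or more, 326 genes were higher and 486 lower, and at 4-fold or more 31 were higher and 76 lower. The 3 siControl values did not overlap the 3 DMSO values for 6428 genes (46.6%), and 5182 of these were among the called genes. On all 3 arrays of one group and none of the other, 98 genes were detected in siControl cultures alone and 153 in DMSO cultures alone.

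**Figure D1:**
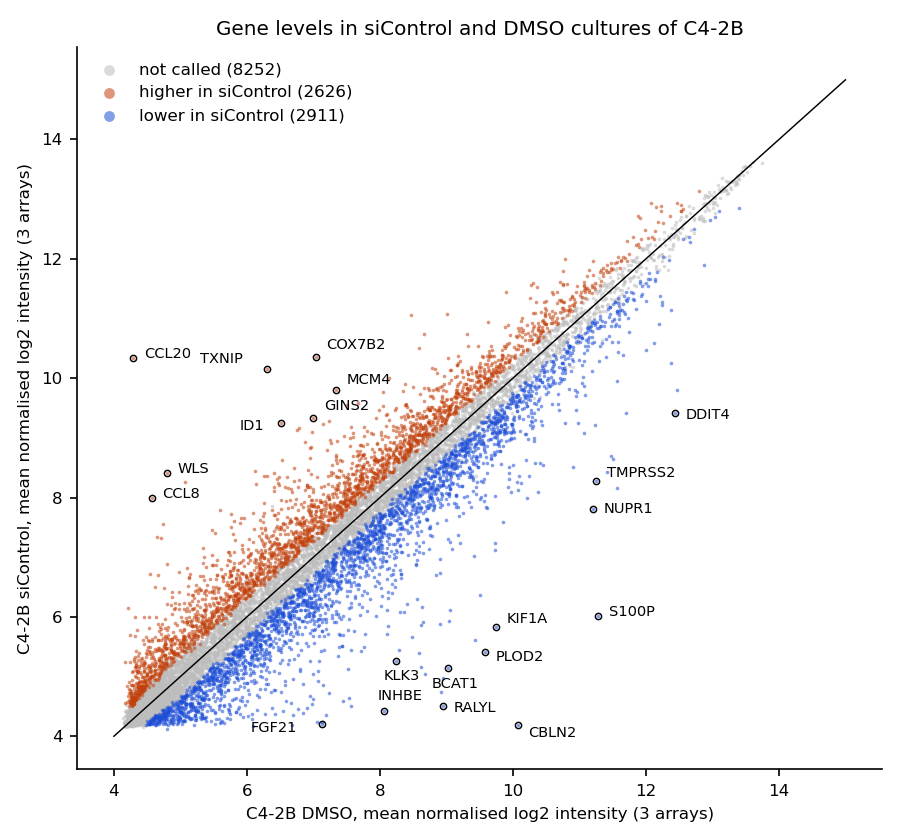
Mean log2 intensity of each of the 13789 genes in the C4-2B siControl cultures (vertical axis) against its mean in the C4-2B DMSO cultures (horizontal axis), 3 arrays each, with called genes coloured by direction. CCL20 and TXNIP lie far above the diagonal, and CBLN2, S100P and KLK3 far below it.

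The gene with the highest difference was CCL20, a chemokine that attracts cells bearing CCR6. Its levels were 10.33, 10.51 and 10.18 in siControl cultures, against 4.24, 4.40 and 4.25 in DMSO cultures. It was detected on every siControl array and on no DMSO array, so the change is a bound: at least 55.7-fold higher (adjusted p = 6.67e-18). TXNIP, an arrestin-family protein that binds thioredoxin and limits glucose uptake, had levels of 10.17, 9.99 and 10.30 in siControl cultures, against 6.17, 6.20 and 6.52 in DMSO cultures. It was higher by 3.85 ± 0.16 (adjusted p = 6.22e-15). WLS, which carries Wnt proteins to the cell surface, had 8.35, 8.31 and 8.59 in siControl cultures, against 4.76, 5.15 and 4.49 in DMSO cultures, and was detected on 2 of the DMSO arrays. CCL8, another chemokine, had 7.96, 8.36 and 7.66 in siControl cultures, against 4.44, 4.57 and 4.70 in DMSO cultures, again with detection on 2 DMSO arrays. In all of these genes the groups were separated by more than 2 log2 units. They rose by 3.62 ± 0.13 (WLS) and 3.42 ± 0.13 (CCL8).

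COX7B2, a relative of a cytochrome c oxidase subunit, had 10.17, 10.65 and 10.26 in siControl cultures, against 7.09, 7.00 and 7.02 in DMSO cultures, a rise of 3.32 ± 0.16. The inhibitors of DNA binding ID1 and ID3, both targets of BMP signalling, rose together: ID1 had 9.16, 9.25 and 9.32 in siControl cultures, against 6.25, 6.44 and 6.86 in DMSO cultures, and ID3 had 9.20, 9.24 and 9.25 in siControl cultures, against 7.07, 7.00 and 7.36 in DMSO cultures. Their differences were 2.72 ± 0.14 and 2.08 ± 0.11. Among the other 25 highest genes were ATP1B1, a subunit of the sodium pump (2.60), the transcription factor MYB (2.20), TUBA4A, an alpha tubulin (2.39), and ZC3H12C, of a family of RNA-degrading enzymes (2.61). CCDC85A (3.19), the phospholipid phosphatase relative PLPPR1 (2.81), SDCBP2 (2.70) and the cancer-testis gene CT45A1 (2.38) also rose. CT45A1 has close copies that share much of its sequence, and whether its probe reads them was not tested. PLPPR1, SDCBP2 and ZC3H12C were detected on 2 of the DMSO arrays.

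CBLN2, a secreted organiser of synapses in neurons, had the lowest difference. It had levels of 4.18, 4.19 and 4.21 in siControl cultures, against 10.17, 10.06 and 10.01 in DMSO cultures, was detected on no siControl array, and was at least 46.6-fold lower (adjusted p = 1.32e-13). S100P, a calcium-binding protein, had 5.49, 6.26 and 6.28 in siControl cultures, against 11.50, 11.49 and 10.85 in DMSO cultures, and fell by 5.27 ± 0.19 (adjusted p = 2.68e-16). The RNA-binding protein gene RALYL, detected on 1 siControl array, had 4.39, 4.62 and 4.51 in siControl cultures, against 9.04, 9.02 and 8.80 in DMSO cultures. EPHA3, a receptor for ephrins, had 4.82, 4.64 and 4.76 in siControl cultures, against 9.04, 9.04 and 8.67 in DMSO cultures. Both fell without overlap of the groups, with differences of −4.45 ± 0.14 (RALYL) and −4.18 ± 0.13 (EPHA3). PLOD2, an enzyme that hydroxylates collagen lysines, had 4.97, 4.53 and 6.72 in siControl cultures, against 9.31, 9.81 and 9.63 in DMSO cultures, so siControl replicate 3 was well above the other siControl arrays. PLOD2 still fell by 4.18 ± 0.40.

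Other genes among the 25 lowest were the protocadherin PCDH7 (−3.97), the axonal kinesin KIF1A (−3.92), the branched-chain amino acid transaminase BCAT1 (−3.87), the stress gene NIBAN1 (−3.83), the coagulation inhibitor TFPI (−3.20) and the protein kinase A subunit PRKACB (−3.15). TSC22D3, a gene induced by glucocorticoids, had 8.20, 7.85 and 8.45 in siControl cultures, against 11.53, 11.61 and 11.56 in DMSO cultures. It fell by 3.40 ± 0.12. CAPN5, a calpain protease detected on 1 siControl array, ACOX2, a peroxisomal oxidase, and RBM24, a splicing regulator, differed by −3.06, −3.03 and −2.93. Of the 153 genes detected in DMSO cultures alone, 9 had a bound of at least 4-fold. They were CBLN2, FGF21, RGS11, TMEFF2, BCL11B, GSTA1, SERPINA3, PRSS1 and VLDLR-AS1, of which all but CBLN2 and FGF21 were picked out after their values were seen. TMEFF2, a transmembrane protein made largely in brain and prostate, had 4.29, 4.23 and 4.18 in siControl cultures, against 7.23, 7.16 and 7.00 in DMSO cultures, at least 6.03-fold lower.

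Of the 39 gene lists the ATF4 stress response had the lowest median. Of 33 listed genes all were measured, 31 were called lower and none higher, and their median difference was −1.77, against −0.01 over all genes. The mean level of the list was 8.34, 8.29 and 8.57 on siControl arrays and 10.24, 10.26 and 10.05 on DMSO arrays, with no overlap. With the arrays centred on the median of all probes 24 members were called lower. When the EPZ6438 arrays stood in for the DMSO arrays 12 were called lower and 3 higher, where that comparison called 43.4% of all genes (20.7% higher and 22.8% lower).

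RefSeq promoters (GRCh38.p14) of the list were searched on both strands for TGATGNAA, a form of the composite element that ATF4 and its C/EBP partners bind, over 250 bases before and 50 after the annotated start. It was found in 6 of the 28 members with a promoter in the table (21.4%), in 198 of 10879 promoters of genes tested (1.82%) and in 1003 of all 27305 promoters (3.67%). The sequences of 3 members with a match are shown because their levels are described next, each as the 250 bases before the start, 5′ to 3′, with the match in capitals.
ASNS (chr7:97872409-97872658, minus strand): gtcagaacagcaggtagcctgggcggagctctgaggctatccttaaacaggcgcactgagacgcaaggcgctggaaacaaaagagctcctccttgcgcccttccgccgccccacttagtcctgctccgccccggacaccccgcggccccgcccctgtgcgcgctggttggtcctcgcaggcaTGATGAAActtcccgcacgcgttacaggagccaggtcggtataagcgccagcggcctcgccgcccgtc
CHAC1 (chr15:40953221-40953470, plus strand): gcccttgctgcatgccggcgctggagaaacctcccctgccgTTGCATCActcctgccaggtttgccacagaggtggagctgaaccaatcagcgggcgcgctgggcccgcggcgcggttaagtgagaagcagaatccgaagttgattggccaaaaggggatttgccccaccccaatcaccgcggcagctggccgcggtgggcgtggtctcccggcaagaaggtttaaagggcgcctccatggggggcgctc
ATF3 (chr1:212565157-212565406, plus strand): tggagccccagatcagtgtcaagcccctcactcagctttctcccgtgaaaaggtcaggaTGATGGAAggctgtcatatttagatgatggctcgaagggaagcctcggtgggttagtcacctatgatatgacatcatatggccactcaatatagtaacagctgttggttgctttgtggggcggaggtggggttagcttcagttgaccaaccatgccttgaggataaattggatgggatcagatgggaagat
The match begins at −68 relative to the start in ASNS, at −209 in CHAC1 and at −191 in ATF3. A match describes the sequence only, and no binding was measured.

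ASNS, which makes asparagine, had 9.75, 9.70 and 9.95 in siControl cultures, against 12.55, 12.52 and 12.34 in DMSO cultures. It fell by 2.67 ± 0.11 (adjusted p = 1.64e-15). CHAC1, which degrades glutathione and was detected on 1 siControl array, had 4.33, 4.56 and 4.25 in siControl cultures, against 6.47, 6.54 and 6.26 in DMSO cultures, a difference of −2.04 ± 0.16. ATF3, a stress-induced transcription factor, had 7.94, 7.72 and 8.27 in siControl cultures, against 9.56, 9.58 and 9.37 in DMSO cultures, a difference of −1.53 ± 0.18. In each of these the highest siControl value lay below the lowest DMSO value.

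The 5 members that moved most were SLC6A9, a glycine transporter, NUPR1, a stress-induced chromatin protein, CTH, which makes cysteine from cystathionine, DDIT4, an inhibitor of mTORC1, and PCK2, the mitochondrial phosphoenolpyruvate carboxykinase. SLC6A9 had 4.89, 5.01 and 5.57 in siControl cultures, against 8.67, 8.74 and 8.45 in DMSO cultures. NUPR1 had 7.47, 7.65 and 8.29 in siControl cultures, against 10.96, 11.27 and 11.39 in DMSO cultures, and CTH had 5.97, 5.87 and 5.97 in siControl cultures, against 9.06, 9.10 and 8.97 in DMSO cultures. These 3 fell, with differences of −3.46 ± 0.15, −3.40 ± 0.15 and −3.11 ± 0.14. DDIT4 had 9.07, 8.84 and 10.36 in siControl cultures, against 12.37, 12.32 and 12.61 in DMSO cultures, with siControl replicate 3 above the other siControl arrays, and PCK2 had 8.39, 8.16 and 8.74 in siControl cultures, against 11.67, 11.58 and 11.00 in DMSO cultures. They fell, with differences of −3.01 ± 0.25 and −2.99 ± 0.15.

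Other members followed by role. Amino acid synthesis genes PSAT1 (−2.13), PSPH (−2.28), PHGDH (−0.56) and SHMT2 (−0.98), transporter genes SLC7A11 (−1.91), SLC3A2 (−1.90) and SLC7A5 (−1.37), and the tRNA synthetase genes GARS1 (−1.52), SARS1 (−1.29), AARS1 (−0.96) and NARS1 (−0.74) were all lower. The pseudokinase TRIB3, which restrains ATF4, had 8.57, 8.51 and 8.87 in siControl cultures, against 11.54, 11.60 and 11.40 in DMSO cultures. DDIT3, which encodes the death-promoting factor CHOP, had 7.88, 7.95 and 8.13 in siControl cultures, against 10.36, 10.37 and 9.90 in DMSO cultures. They fell, with differences of −2.86 ± 0.16 and −2.22 ± 0.14. ATF4 itself had 11.93, 11.77 and 12.02 in siControl cultures, against 12.87, 12.92 and 12.82 in DMSO cultures, a difference of −0.96 ± 0.12 (adjusted p = 9.87e-07). ATF5 (−0.20, adjusted p = 0.421) and ALDH1L2 (−0.23, adjusted p = 0.277) were not called.

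The hormone genes FGF21 and INHBE, both induced in cells under such stress, were among the 25 lowest. FGF21 had 4.21, 4.19 and 4.21 in siControl cultures, against 7.03, 7.05 and 7.30 in DMSO cultures, and was at least 6.03-fold lower in siControl cultures, where it was detected on no array. INHBE, a subunit of the activin family detected on 1 siControl array, had 4.39, 4.32 and 4.57 in siControl cultures, against 8.23, 7.97 and 7.99 in DMSO cultures, and fell by 3.64 ± 0.12. GDF15, a member of both the ATF4 and the p53 list, had 8.34, 8.24 and 9.50 in siControl cultures, against 11.31, 11.55 and 11.56 in DMSO cultures, a difference of −2.78 ± 0.25.

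**Figure D2:**
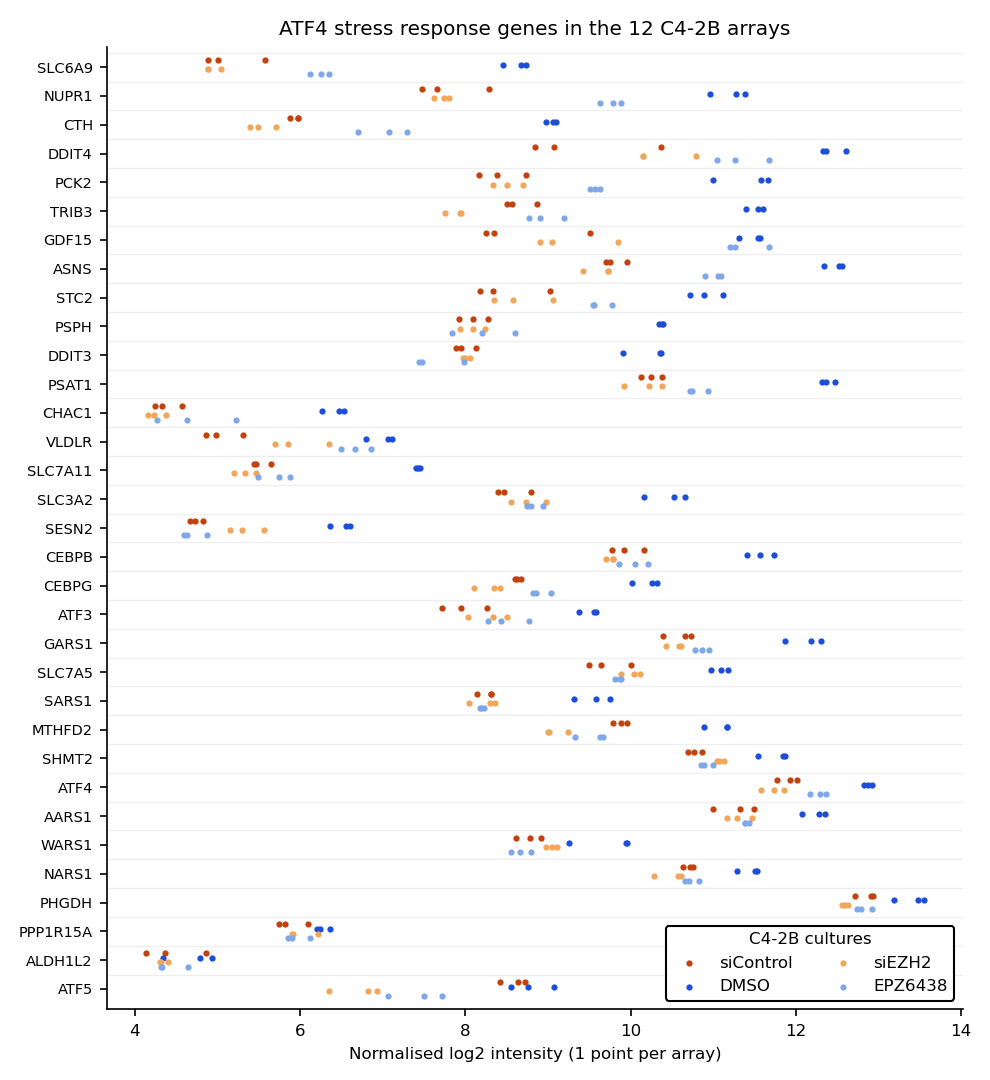
Log2 intensity on each C4-2B array (3 per group) for genes of the ATF4 stress response, with siControl drawn above DMSO and siEZH2 above EPZ6438 within each row. The DMSO arrays are the highest for ASNS, at 12.34 to 12.55, and the EPZ6438 arrays lie at 10.89 to 11.09.

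Chaperones of the endoplasmic reticulum and of the cytosol did not move together. Of 17 measured chaperone and quality-control genes of the endoplasmic reticulum (19 listed) 7 were lower (41.2%) and 1 higher (5.88%). Of all genes 21.1% were lower and 19.0% higher. The median of the list was −0.29, and 0.10 with the arrays centred on the median of all probes, where 3 were lower. HSPA5, the main chaperone of that compartment, had 6.53, 6.50 and 6.61 in siControl cultures, against 8.64, 8.57 and 7.33 in DMSO cultures. It fell by 1.64 ± 0.20, and DMSO replicate 3 was more than 1 unit below the other DMSO arrays. DNAJB9, its co-chaperone (−1.26), SEL1L and SYVN1, parts of the ligase that removes misfolded proteins (−1.25 and −0.81), and XBP1 (−0.71) also fell. CALR, calreticulin, rose (0.64).

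Of 14 measured heat shock genes (15 listed) 8 were higher (57.1%) and none lower, against 19.0% and 21.1% of all genes. The median of the list was 0.40. HSPH1, a large cytosolic chaperone, had 11.68, 11.49 and 11.51 in siControl cultures, against 10.39, 10.43 and 10.02 in DMSO cultures, a rise of 1.28 ± 0.11. HSP90AA1, the inducible HSP90, had 12.76, 12.59 and 12.69 in siControl cultures, against 11.91, 11.89 and 11.93 in DMSO cultures, a rise of 0.77 ± 0.10. HSPA4L (0.91), the mitochondrial co-chaperonin HSPE1 (0.76) and DNAJB1 (0.61) rose too. HSPB1 and HSPD1 were not called (−0.07, adjusted p = 0.688, and 0.13, adjusted p = 0.213).

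DNA replication genes had the highest median of the 39 lists. Of 45 measured members (46 listed) 41 were higher and none lower, with a median of 1.16. The mean level of the list was 8.71, 8.68 and 8.67 on siControl arrays and 7.38, 7.42 and 7.77 on DMSO arrays. Without DMSO replicate 3, the highest of the DMSO arrays, 41 were again called higher.

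Promoters of these genes were searched in the same window and on both strands for TTTCCCGC and TTTGGCGC, sites that E2F factors bind. One or the other was found in 18 of 39 members with a promoter in the table (46.2%), in 384 of 10879 promoters of genes tested (3.53%) and in 631 of all 27305 (2.31%). The promoters of 3 members with a match and a large difference are shown in the same form, with the match in capitals.
GINS2 (chr16:85688955-85689204, minus strand): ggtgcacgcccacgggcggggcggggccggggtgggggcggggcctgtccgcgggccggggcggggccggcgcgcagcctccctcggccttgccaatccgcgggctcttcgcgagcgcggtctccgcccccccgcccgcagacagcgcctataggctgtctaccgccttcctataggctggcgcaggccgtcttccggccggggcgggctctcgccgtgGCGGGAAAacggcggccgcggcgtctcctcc
PCNA (chr20:5126623-5126872, minus strand): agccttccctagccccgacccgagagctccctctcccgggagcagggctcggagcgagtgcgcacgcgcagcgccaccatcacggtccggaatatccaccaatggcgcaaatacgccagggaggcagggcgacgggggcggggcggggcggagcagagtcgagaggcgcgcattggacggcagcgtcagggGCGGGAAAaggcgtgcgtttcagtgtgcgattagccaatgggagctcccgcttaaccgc
UHRF1 (chr19:4909251-4909500, plus strand): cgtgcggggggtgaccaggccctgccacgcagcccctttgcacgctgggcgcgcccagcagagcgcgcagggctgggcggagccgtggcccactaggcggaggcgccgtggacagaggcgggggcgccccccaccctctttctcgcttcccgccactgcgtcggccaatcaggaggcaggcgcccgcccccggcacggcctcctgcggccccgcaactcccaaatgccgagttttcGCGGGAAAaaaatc
The matches begin at −31 in GINS2, −59 in PCNA and −14 in UHRF1.

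GINS2, a subunit of the replicative helicase, had 9.33, 9.41 and 9.26 in siControl cultures, against 6.72, 6.77 and 7.51 in DMSO cultures, a rise of 2.34 ± 0.14 (adjusted p = 4.13e-12). PCNA, the clamp that holds DNA polymerase on its template, had 10.44, 10.70 and 10.37 in siControl cultures, against 8.39, 8.49 and 8.89 in DMSO cultures, a rise of 1.92 ± 0.12. UHRF1, which guides maintenance DNA methylation to new DNA, had 10.16, 9.82 and 10.03 in siControl cultures, against 7.76, 7.99 and 8.66 in DMSO cultures, a rise of 1.87 ± 0.16. All siControl values exceeded all DMSO values, and in each gene DMSO replicate 3 was the highest of the DMSO arrays.

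Among the helicase loaders and subunits MCM4 had 9.93, 9.72 and 9.77 in siControl cultures, against 7.13, 7.17 and 7.73 in DMSO cultures, and MCM2 had 9.57, 9.42 and 9.65 in siControl cultures, against 7.18, 7.23 and 8.08 in DMSO cultures. MCM10, which helps activate the helicase, had 9.13, 9.15 and 9.03 in siControl cultures, against 6.68, 6.67 and 7.61 in DMSO cultures. They rose by 2.46 ± 0.16, 2.05 ± 0.17 and 2.12 ± 0.16. FEN1, the nuclease that trims Okazaki fragments, had 10.73, 10.53 and 10.99 in siControl cultures, against 8.42, 8.64 and 8.94 in DMSO cultures, a rise of 2.08 ± 0.17. Nucleotide supply genes RRM2, TK1, TYMS and RRM1 differed by 1.36, 1.40, 1.11 and 0.76. The licensing gene CDT1 differed by 1.53, the histone chaperone gene CHAF1B by 1.71 and E2F1 by 0.49. ORC6, POLE, PRIM2 and GINS4 were not called, at −0.16, 0.30, 0.52 and 0.62 (adjusted p of 0.45, 0.153, 0.0652 and 0.0784). Outside the list, the repair nuclease EXO1 (2.10) and CDC25A, the phosphatase that activates the kinases of the G1 to S transition (2.09), were among the 25 highest genes.

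Of the 40 mitosis genes 28 were higher (70%) and none lower, against 19.0% and 21.1% of all genes, with a median of 0.55 for the list. CDK1, the kinase that drives entry into mitosis, had 11.41, 11.55 and 11.36 in siControl cultures, against 9.69, 9.70 and 10.29 in DMSO cultures. SPC25 of the outer kinetochore had 7.38, 7.83 and 7.22 in siControl cultures, against 6.15, 5.88 and 6.29 in DMSO cultures. They rose by 1.55 ± 0.14 and 1.37 ± 0.18, without overlap. The checkpoint kinase BUB1B (1.21), ANLN of the cleavage furrow (1.18), the transcription factor FOXM1 (1.08) and MKI67 (0.87) also rose. CCNB1 (−0.16, adjusted p = 0.327), AURKA (−0.06, adjusted p = 0.73) and CENPE (−0.23, adjusted p = 0.145) were not called.

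Of 31 measured ribosome assembly genes (34 listed) 21 were higher, led by PES1, RRP9 and UTP20 (1.44, 0.99 and 0.89), and 1 was lower, the transcription factor MYC (−0.59). PES1 had 7.91, 7.91 and 8.04 in siControl cultures, against 5.92, 6.44 and 7.16 in DMSO cultures, with a wide spread in DMSO. The 61 measured genes of the ribosomal proteins themselves (70 listed) had 4 higher, 8 lower and a median of −0.01, which was 0.22 with the arrays centred on the median of all probes, where 5 were higher and none lower and all genes had a median of 0.09. After quantile normalisation 6.56% were higher and 13.1% lower, below the 19.0% and 21.1% of all genes. Centring on the detected probes left 6 higher and 2 lower. Of the 8, 4 were called without siControl replicate 1 and 5 without DMSO replicate 2, and without siControl replicate 2 the higher ones numbered 2. Of 26 histone genes 9 were higher (34.6%) and 4 lower (15.4%), against 19.0% and 21.1% of all genes. None was lower with the arrays centred on the median of all probes. The higher were led by H2BC11 (1.64) and the linker histone gene H1-2 (0.99), and the lower by H2BC21 (−0.85). Histone genes have close copies, and whether their probes read more than 1 of them was not tested.

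Genes of the p53 response went both ways, with 11 of 25 higher (44%) and 7 lower (28%), against 19.0% and 21.1% of all genes. With the arrays centred on the median of all probes 8 were higher and 1 lower. The nuclease AEN had 9.28, 9.30 and 9.34 in siControl cultures, against 8.29, 8.07 and 8.06 in DMSO cultures, and MDM2, the ligase that degrades p53, had 5.40, 5.42 and 5.59 in siControl cultures, against 4.74, 4.81 and 4.48 in DMSO cultures. They rose by 1.16 ± 0.10 and 0.79 ± 0.12, with MDM2 detected on 2 DMSO arrays. CDKN1A, the cell cycle inhibitor p21, had 10.37, 10.08 and 10.57 in siControl cultures, against 9.82, 9.84 and 10.01 in DMSO cultures, a rise of 0.45 ± 0.11. GDF15 was the lowest of the list, and the death receptor gene TNFRSF10B fell too (−0.76).

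In the complex that EZH2 belongs to, Polycomb repressive complex 2, 5 of 13 genes were higher (38.5%) and 2 lower (15.4%). Of all genes 19.0% were higher and 21.1% lower. With the arrays centred on the median of all probes 3 of the 13 were higher and 2 lower. EED, the core subunit that reads the methyl mark, had 7.26, 7.38 and 7.26 in siControl cultures, against 5.97, 5.99 and 6.15 in DMSO cultures. MTF2, an accessory subunit that guides the complex to DNA, had 7.12, 7.12 and 6.87 in siControl cultures, against 5.68, 5.63 and 5.94 in DMSO cultures. They rose by 1.26 ± 0.11 and 1.28 ± 0.13. JARID2, another accessory subunit, had 6.52, 6.21 and 6.47 in siControl cultures, against 7.80, 7.80 and 7.79 in DMSO cultures, and fell by 1.40 ± 0.12. PHF1 fell as well (−1.01), and RBBP7 rose (0.49).

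Androgen-induced genes were mostly lower. Of 34 measured (40 listed) 21 were lower (61.8%) and 3 higher (8.82%), against 21.1% and 19.0% of all genes. The median of the list was −0.53, and with the arrays centred on the median of all probes 13 were lower. The mean level of the list was 7.30, 7.27 and 7.38 on siControl arrays and 8.12, 8.13 and 8.15 on DMSO arrays. KLK3 had 5.09, 5.41 and 5.28 in siControl cultures, against 7.90, 7.96 and 8.86 in DMSO cultures, and fell by 2.98 ± 0.19 (adjusted p = 7.45e-12). TMPRSS2, a protease of the prostate epithelium, had 8.28, 8.09 and 8.44 in siControl cultures, against 11.27, 11.38 and 11.11 in DMSO cultures, and fell by 2.98 ± 0.12 (adjusted p = 2.23e-15). AZGP1, a secreted zinc-binding glycoprotein, had 4.91, 4.90 and 5.30 in siControl cultures, against 8.72, 8.81 and 8.50 in DMSO cultures, and fell by 3.64 ± 0.12. In none of these did the groups overlap.

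PMEPA1, which damps TGF-beta signalling, had 7.36, 7.22 and 7.13 in siControl cultures, against 9.94, 9.78 and 9.45 in DMSO cultures, a difference of −2.49 ± 0.13. KLK2, a neighbour and relative of KLK3, had 6.57, 6.56 and 6.86 in siControl cultures, against 7.83, 7.79 and 8.13 in DMSO cultures, a difference of −1.25 ± 0.13. The calcium channel gene TRPM8 (−1.50), the exporter gene ABCC4 (−1.49), SLC45A3 (−1.33) and KLK4 (−0.75) were also lower. FKBP5, a much-used reporter of the receptor, was not called, at 9.39, 9.28 and 9.24 in siControl cultures, against 9.40, 9.56 and 9.70 in DMSO cultures (adjusted p = 0.0691). EAF2 (1.18), NCAPD3 (0.82) and ODC1 (0.45) were the 3 higher members, and ODC1 makes polyamines.

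Luminal markers overlap that list in KLK2, KLK3 and TMPRSS2. Of 21 measured (23 listed) 12 were lower and 1 higher, and 7 were lower with the arrays centred on the median of all probes. KRT19 had 5.91, 5.85 and 6.28 in siControl cultures, against 7.70, 7.94 and 8.16 in DMSO cultures, and the factors SPDEF, HOXB13 and FOXA1, which set luminal identity, differed by −0.85, −0.72 and −0.52. AGR2, a disulfide isomerase of secretory cells, rose (1.41).

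Of 10 measured genes that androgen represses (11 listed) 3 were higher (30%) and 4 lower (40%), against 19.0% and 21.1% of all genes. With the arrays centred on the median of all probes 3 were higher and 3 lower. Some of the UGT2B enzymes attach glucuronic acid to androgens and so inactivate them. No enzyme activity was measured here. UGT2B10 had 6.78, 7.03 and 6.84 in siControl cultures, against 4.76, 4.86 and 4.78 in DMSO cultures, UGT2B28 had 8.30, 8.51 and 8.40 in siControl cultures, against 6.23, 6.24 and 6.75 in DMSO cultures, and UGT2B11 had 8.93, 9.12 and 9.02 in siControl cultures, against 7.37, 7.26 and 7.73 in DMSO cultures. They rose by 2.08 ± 0.15, 2.00 ± 0.14 and 1.57 ± 0.13. UGT2B17 fell (−0.58) and UGT2B15 was not called (0.17, adjusted p = 0.683). These genes are close copies, and whether a probe reads more than 1 was not tested. BCHE, butyrylcholinesterase, fell (−2.83), as did the chemokine receptor gene ACKR3 (−1.88).

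Of 17 measured inflammatory targets of NF-kB (22 listed) 8 were higher (47.1%) and none lower, against 19.0% and 21.1% of all genes. Their median was 0.27, and 0.05 with the arrays centred on the detected probes, where 5 were higher. CCL20 led them. CCL2, a chemokine for monocytes, had 6.02, 6.41 and 6.00 in siControl cultures, against 4.18, 4.25 and 4.20 in DMSO cultures, at least 3.04-fold higher, and CXCL8, a chemokine for neutrophils, had 5.52, 5.52 and 4.94 in siControl cultures, against 4.20, 4.24 and 4.50 in DMSO cultures, at least 1.72-fold higher. SOD2, the mitochondrial superoxide dismutase, had 8.31, 8.53 and 8.33 in siControl cultures, against 6.84, 6.96 and 7.10 in DMSO cultures, a rise of 1.42 ± 0.10. LCN2, an iron-scavenging protein of inflamed epithelia that is not on the list, had 6.42, 6.42 and 6.66 in siControl cultures, against 4.83, 4.62 and 4.41 in DMSO cultures, a rise of 1.88 ± 0.13, with detection on 2 DMSO arrays. NFKB1 (−0.06, adjusted p = 0.665) and ICAM1 (−0.06, adjusted p = 0.798) were not called.

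The lists for responses to foreign RNA did not stand far above the shares of all genes in either direction. Of 41 measured interferon-stimulated genes (46 listed) 6 were higher and 10 lower, which is 14.6% and 24.4% against 19.0% and 21.1% of all genes, and with the arrays centred on the median of all probes 4 were higher and 5 lower. OAS3, a sensor of double-stranded RNA, had 6.58, 6.32 and 6.34 in siControl cultures, against 4.83, 4.70 and 5.12 in DMSO cultures, a rise of 1.53 ± 0.12. IFIT1 and IFIT2, which bind foreign RNA, were detected in siControl cultures alone, at least 1.65-fold and 1.56-fold higher. BST2, a membrane tether of viruses that was detected on 1 siControl array, had 4.50, 4.38 and 4.55 in siControl cultures, against 6.39, 6.10 and 6.64 in DMSO cultures, a difference of −1.90 ± 0.14. The exonuclease gene ISG20 (−1.50) and the membrane protein genes IFITM2 and IFITM3 (−1.44 and −1.04) also fell. The interferon genes IFNB1 and IFNL1 were detected on none of the 6 arrays.

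Of 16 RNA sensing genes 3 were higher (18.8%) and 2 lower (12.5%), against 19.0% and 21.1% of all genes. The adaptor MAVS (0.51), the kinase gene IKBKE (0.51) and IRF3 (0.45) rose, and TRIM25 (−0.67) and IRF7 (−0.56) fell. With the mean of its probes MAVS was not called (0.17, adjusted p = 0.393). EIF2AK2, the kinase PKR, was not called (−0.03, adjusted p = 0.864). Of the 13 genes of the RNA interference machinery 3 were higher (DGCR8, DICER1 and DROSHA, at 0.49, 0.40 and 0.40) and 3 lower (TNRC6B, AGO4 and AGO3, at −0.64, −0.39 and −0.26). That is 23.1% each way, near the 19.0% and 21.1% of all genes. Without DMSO replicate 1, and likewise without DMSO replicate 2, 1 of the list was lower, and DROSHA was not called without DMSO replicate 3 (adjusted p = 0.11). IRF3 was not called without siControl replicate 3 or without DMSO replicate 1 or 2 (adjusted p of 0.132, 0.0823 and 0.078). AGO4 was not called without siControl replicate 2 or 3 or without DMSO replicate 1 or 2 (adjusted p of 0.0583 to 0.183). With the arrays centred on the median of all probes no gene of the interference list was called in either direction, and on the sensing list 1 was higher and none lower. AGO2, which cuts the targets of siRNAs, was not called (0.05, adjusted p = 0.885).

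Metabolic lists moved in both directions. Of 22 measured hypoxia genes (24 listed) 10 were lower (45.5%) and 3 higher (13.6%), against 21.1% and 19.0% of all genes. VEGFA, the vascular growth factor, had 5.65, 5.40 and 6.07 in siControl cultures, against 8.32, 8.09 and 7.90 in DMSO cultures, and fell by 2.40 ± 0.31, and the mitophagy receptor gene BNIP3L (−1.51) and NDRG1 (−1.75) fell too. CA12, a carbonic anhydrase, had 8.20, 8.25 and 8.47 in siControl cultures, against 6.43, 6.33 and 6.59 in DMSO cultures, a rise of 1.85 ± 0.12. With the arrays centred on the median of all probes 4 of the list were lower. Among 21 glycolysis genes 5 were higher (23.8%) and 6 lower (28.6%), against 19.0% and 21.1% of all genes. Under that centring 8 were higher and 3 lower, and GAPDH was not called in the main comparison (0.12, adjusted p = 0.344). Leaving out 1 array moved the higher ones to between 2 (without siControl replicate 3) and 8 (without siControl replicate 2), with 3 without siControl replicate 1 or DMSO replicate 1, and the lower ones numbered 3 without siControl replicate 2 or DMSO replicate 2.

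Of 13 measured genes of fatty acid synthesis 5 were lower (38.5%) and 1 higher (7.69%), against 21.1% and 19.0% of all genes. The median of the list was −0.23, and 0.08 with the arrays centred on the median of all probes, where 2 were lower. SCD, the desaturase that makes oleate, had 11.19, 10.93 and 11.33 in siControl cultures, against 12.35, 12.36 and 12.42 in DMSO cultures, a difference of −1.23 ± 0.09. ACSL1, which activates fatty acids, fell by 1.71 ± 0.14, and the lipid regulator SREBF1 fell by 0.74 ± 0.14. ELOVL6, which lengthens palmitate, had 8.14, 8.32 and 8.15 in siControl cultures, against 6.36, 6.40 and 6.69 in DMSO cultures, a rise of 1.72 ± 0.12. Of 19 cholesterol genes 5 were higher and 4 lower (26.3% and 21.1%, near the 19.0% and 21.1% of all genes), and 5 and 1 with the arrays centred on the median of all probes. ACAT2, EBP and CYP51A1 rose (0.91, 0.87 and 0.80) and TM7SF2 fell (−1.02). In the respiratory chain 7 of 42 genes were higher (16.7%) and 2 lower (4.76%), against 19.0% and 21.1% of all genes. With the arrays centred on detected probes 14 were higher and none lower. The higher ones were led by UQCRB and UQCRC2 of complex III (0.55 and 0.55).

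Lysosome and autophagy genes were 6 higher and 7 lower of 25 (24% and 28%, near the shares of all genes). They were 4 higher and 3 lower with the arrays centred on the median of all probes, and 5 and 14 when the EPZ6438 arrays stood in for the DMSO arrays. GLA, a lysosomal galactosidase (1.26), and the calcium channel gene MCOLN1 (0.96) rose, and the autophagy genes WIPI1 (−1.45), MAP1LC3B (−1.15) and GABARAPL1 (−0.81) fell. Of 16 genes of the NRF2 response 4 were higher and 4 lower (25% and 25%, against 19.0% and 21.1% of all genes). With the arrays centred on the median of all probes 1 was higher and 2 lower. Those called after quantile normalisation included NQO1 (0.48) and GCLC, which limits glutathione synthesis (−1.32). CYP1B1, a target of the aryl hydrocarbon receptor, had 6.85, 7.01 and 6.84 in siControl cultures, against 5.44, 5.54 and 5.02 in DMSO cultures, a rise of 1.56 ± 0.14. It was 1 of 3 higher genes among 7 of that list, and none was lower. Besides TXNIP, its relatives ARRDC4 (0.70) and ARRDC2 (0.58) rose, so that 3 of 6 genes on that list were higher and none lower. With the mean of its probes ARRDC2 was not called (0.10, adjusted p = 0.428).

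In the short lists that follow, the second pair of counts is that with the arrays centred on the median of all probes. Of all genes 19.0% were higher and 21.1% lower. The list of YAP targets (17.6% and 23.5%) and that of clock genes (14.3% and 21.4%) were near those shares. Among 12 glucocorticoid-responsive genes 2 were higher and 5 lower (2 and 2). Besides TSC22D3 the factors ZBTB16 (−1.41) and KLF9 (−0.92) fell. Of 14 immediate early genes 2 were higher and 4 lower (2 and 2): JUNB (0.92) rose and KLF4 (−1.40, detected on 2 siControl arrays) fell. FOS was detected on none of the 6 arrays. CCN1, a target of YAP and of SRF, had 6.19, 6.03 and 6.18 in siControl cultures, against 4.89, 5.07 and 4.96 in DMSO cultures, a rise of 1.16 ± 0.11, and its list was 3 higher and 4 lower of 17 (3 and 1). ACTA2, smooth muscle actin, rose (1.22, detected on 2 DMSO arrays), on an SRF list with 3 higher and 3 lower of 11 (4 and 1). Clock genes were 2 higher and 3 lower of 14 (none and 1), with NR1D2 the lowest (−1.11). Lipid droplet genes were 4 higher and 4 lower of 10 (2 and none), and metallothionein genes 3 higher and 2 lower of 7 (2 and none), led by CPT1A (0.52) and MT1X (0.59). Without DMSO replicate 1 MT1X was not called (adjusted p = 0.0765) and 1 metallothionein gene was higher, and without DMSO replicate 2 the higher lipid droplet genes numbered 2.

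The small non-coding RNAs named in this paragraph were called higher. The C/D box RNAs SNORD4A, SNORD15B and SNORD16, which guide methylation of other RNAs, were among the 25 highest genes. SNORD4A had 8.16, 8.91 and 8.26 in siControl cultures, against 6.07, 5.86 and 6.43 in DMSO cultures, a rise of 2.33 ± 0.16. SNORD15B and SNORD16 rose by 2.18 ± 0.13 and 2.11 ± 0.23, the first with detection on 1 DMSO array. On a separate list of 23 measured small RNAs (28 listed) 6 were higher and none lower (4 and none with the arrays centred on the median of all probes). The 6 higher were 26.1% of the list, where 19.0% of all genes were higher and 21.1% lower, and 17 of the list were not called. The mean level of the list was 6.31 to 6.86 on siControl arrays and 6.18 to 6.32 on DMSO arrays, so the groups overlapped. RPPH1, the RNA of RNase P, had 6.02, 6.61 and 5.98 in siControl cultures, against 4.96, 4.95 and 4.67 in DMSO cultures, a rise of 1.34 ± 0.16, and the Y RNA gene RNY4 had 5.40, 6.78 and 5.56 in siControl cultures, against 5.17, 5.09 and 5.03 in DMSO cultures. Without siControl replicate 2 that gene was not called (adjusted p = 0.136). In SNORD4A, RPPH1 and RNY4 siControl replicate 2 was the highest array.

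Among markers of other cell types VWF, the clotting factor of endothelium, had 5.11, 5.24 and 5.02 in siControl cultures, against 7.43, 7.43 and 7.70 in DMSO cultures, a difference of −2.39 ± 0.13. It was 1 of 2 endothelial markers that could be tested, and the other, ESAM, rose (0.26), though it was not called in 5 of the 6 fits that left out 1 array (adjusted p of 0.0516 to 0.155). Of the 14 measured fibroblast markers 5 were lower (35.7%) and 1, ACTA2, was higher (7.14%), against 21.1% and 19.0% of all genes. With the arrays centred on the median of all probes 2 were lower. COL5A1 was detected in DMSO cultures alone and was at least 1.74-fold lower. Of the neuroendocrine markers ENO2 fell (−1.19) and SCG5 rose (0.59), and of the blood markers CD14 rose (0.52). With the arrays centred on the detected probes ESAM, SCG5 and CD14 were not called. No basal marker was called: ITGB4, LAMB3 and SERPINB5 stood at −0.20, 0.03 and 0.30 (adjusted p of 0.357, 0.906 and 0.117).

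**Figure D3:**
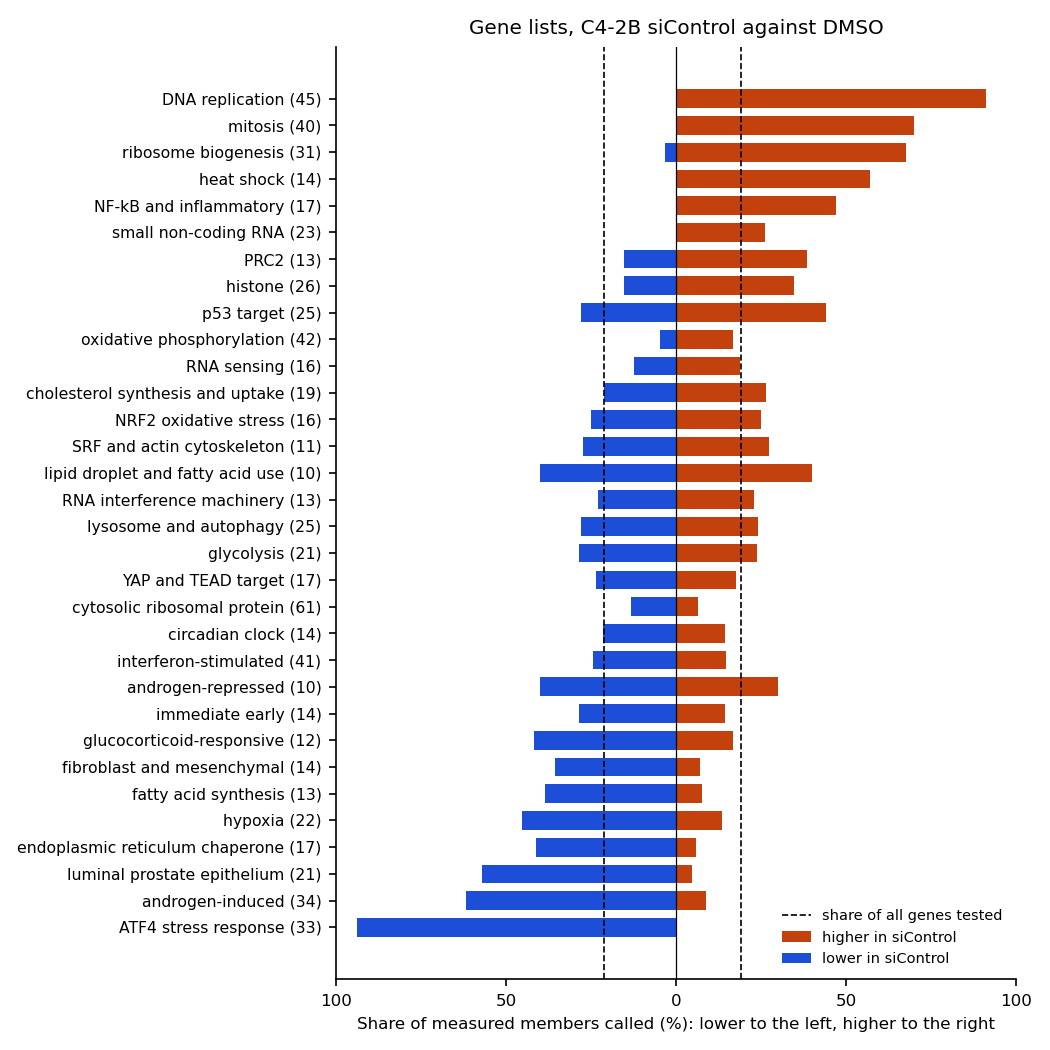
Share of the measured genes called higher or lower in C4-2B siControl than in DMSO cultures, as a percentage of each list with 10 or more measured genes, beside the same over all 13789 genes (19.0% higher, 21.1% lower). DNA replication, with 41 of 45 higher, and the ATF4 stress response, with 31 of 33 lower, lie at the ends.

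The same lists were then read on all C4-2B arrays and on LNCaP arrays. The ATF4 list averaged 8.33, 8.28 and 8.47 on siEZH2 arrays and 8.78, 8.85 and 8.97 on EPZ6438 arrays, so the DMSO arrays were the highest of the 4 C4-2B groups. On the 12 LNCaP arrays it lay between 8.39 and 8.75. The replication list averaged 8.19, 8.27 and 8.13 with siEZH2 and 7.66, 7.70 and 7.72 with EPZ6438. In LNCaP it averaged 7.80, 7.80 and 7.77 in siControl cultures and 8.20, 8.11 and 8.20 in DMSO cultures, the reverse order of C4-2B. The androgen-induced list averaged 7.01, 7.08 and 7.04 with siEZH2 and 8.59, 8.67 and 8.60 with EPZ6438, and the siControl and DMSO arrays lay between them.

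**Figure D4:**
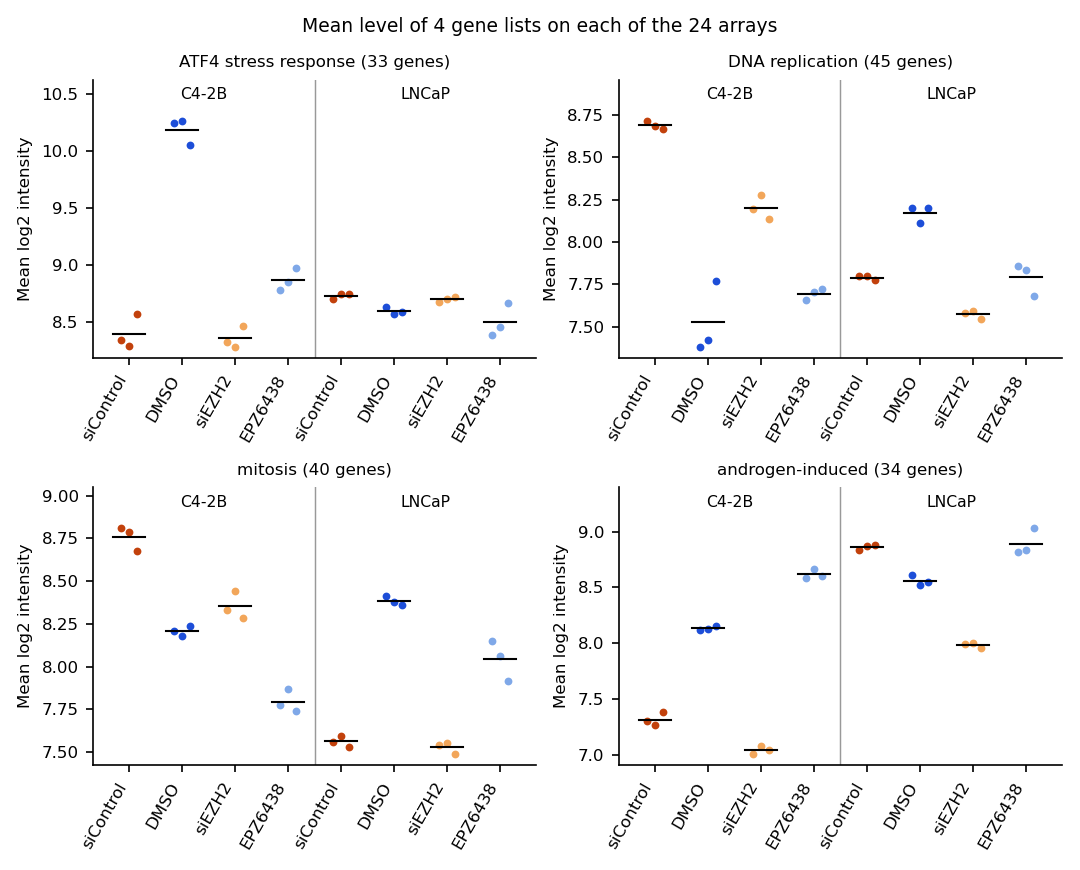
Mean log2 level of 4 gene lists on each array, by line and group, with siControl left of DMSO and siEZH2 left of EPZ6438. In C4-2B the ATF4 list peaks on the DMSO arrays (10.05 to 10.26), and in LNCaP the replication list is lower on siControl arrays (7.77 to 7.80) than on DMSO arrays (8.11 to 8.20).

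The other pair of transfected and untransfected cultures in C4-2B, siEZH2 against EPZ6438, uses none of the 6 arrays. Both of its groups were aimed at EZH2, one at its mRNA and the other at its activity. It called 5705 genes (41.4%), with 2972 higher (21.6%) and 2733 lower (19.8%). Across the 13789 genes its differences followed those of siControl minus DMSO with a Pearson r of 0.73 and a Spearman rho of 0.67, given as a description, since genes are not independent and all arrays were normalised together. Of the genes called between siControl and DMSO 4889 (88.3%) had the same sign, and all 50 genes at the extremes did, of which 49 were called. The genes called higher in both numbered 1706, which is 64.97% of those higher in siControl cultures and 57.4% of those higher in siEZH2 cultures. Those lower in both numbered 1761 (60.5% and 64.4%).

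Single genes show this in full. CCL20 had 10.46, 10.29 and 10.46 in siEZH2 cultures, against 4.46, 4.22 and 4.31 in EPZ6438 cultures. CBLN2 had 4.21, 4.22 and 4.25 in siEZH2 cultures, against 10.39, 10.46 and 10.44 in EPZ6438 cultures, and KLK3 had 5.15, 4.93 and 5.13 in siEZH2 cultures, against 8.88, 8.93 and 9.05 in EPZ6438 cultures. In each the siEZH2 arrays lay near the siControl arrays, and the EPZ6438 arrays lay near or beyond the DMSO arrays. Of the androgen-induced list 27 were lower in siEZH2 than in EPZ6438 cultures and 1 higher (median −1.31), against 21 and 3 between siControl and DMSO.

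The difference between those 2 comparisons, tested gene by gene on a contrast added after the data were seen, was called for 1913 genes (13.9%). It was called for 27 of the 33 ATF4 genes, all with a more negative difference between siControl and DMSO, where 6.61% of all genes were called that way. ASNS had 9.73, 9.42 and 9.72 in siEZH2 cultures, against 10.89, 11.05 and 11.09 in EPZ6438 cultures. INHBE had 4.47, 4.35 and 4.59 in siEZH2 cultures, against 4.94, 5.07 and 5.25 in EPZ6438 cultures, and DDIT3 had 8.05, 8.00 and 7.97 in siEZH2 cultures, against 7.44, 7.48 and 7.98 in EPZ6438 cultures. The DMSO arrays were therefore the highest in these genes, and their EPZ6438 arrays were closer to the transfected arrays. Of the replication list 24 of 45 had a more positive difference between siControl and DMSO (7.26% of all genes), and 23 of the 34 androgen-induced genes had a more positive one as well.

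LNCaP gave another pattern. Its siControl minus DMSO comparison called 3650 genes (26.5%), with 1750 higher (12.7%) and 1900 lower (13.8%), and across genes its differences had an r of 0.03 and a rho of 0.05 with those of C4-2B. Of the genes called in C4-2B 2850 (51.5%) had the same sign in LNCaP, and of the 50 at the extremes 23 did. The difference between the lines was tested as an interaction and called for 4705 genes (34.1%), 2186 with a more positive value in C4-2B (15.9%) and 2519 with a more negative one (18.3%).

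By list, all 40 mitosis genes were lower in LNCaP siControl cultures and all 40 had a called line difference. Of the replication list 24 were lower in LNCaP and 2 higher, and 40 of 45 had a called line difference. Of the ATF4 list 8 were higher in LNCaP and 1 lower, and 31 of 33 had a called line difference. Of the androgen-induced list 14 were higher in LNCaP and 1 lower, with 22 of 34 more negative and 2 more positive in C4-2B. CCL20 averaged 4.41 in LNCaP siControl cultures and 6.32 in LNCaP DMSO cultures (difference −1.91), and its line difference was 7.96. KLK3 averaged 9.40 in LNCaP siControl cultures and 8.39 in LNCaP DMSO cultures, a line difference of −4.0. ID1, in contrast, was higher in both lines (2.72 in C4-2B and 1.45 in LNCaP), and PLOD2 and EPHA3 were lower in both (−2.54 and −2.15 in LNCaP).

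**Figure D5:**
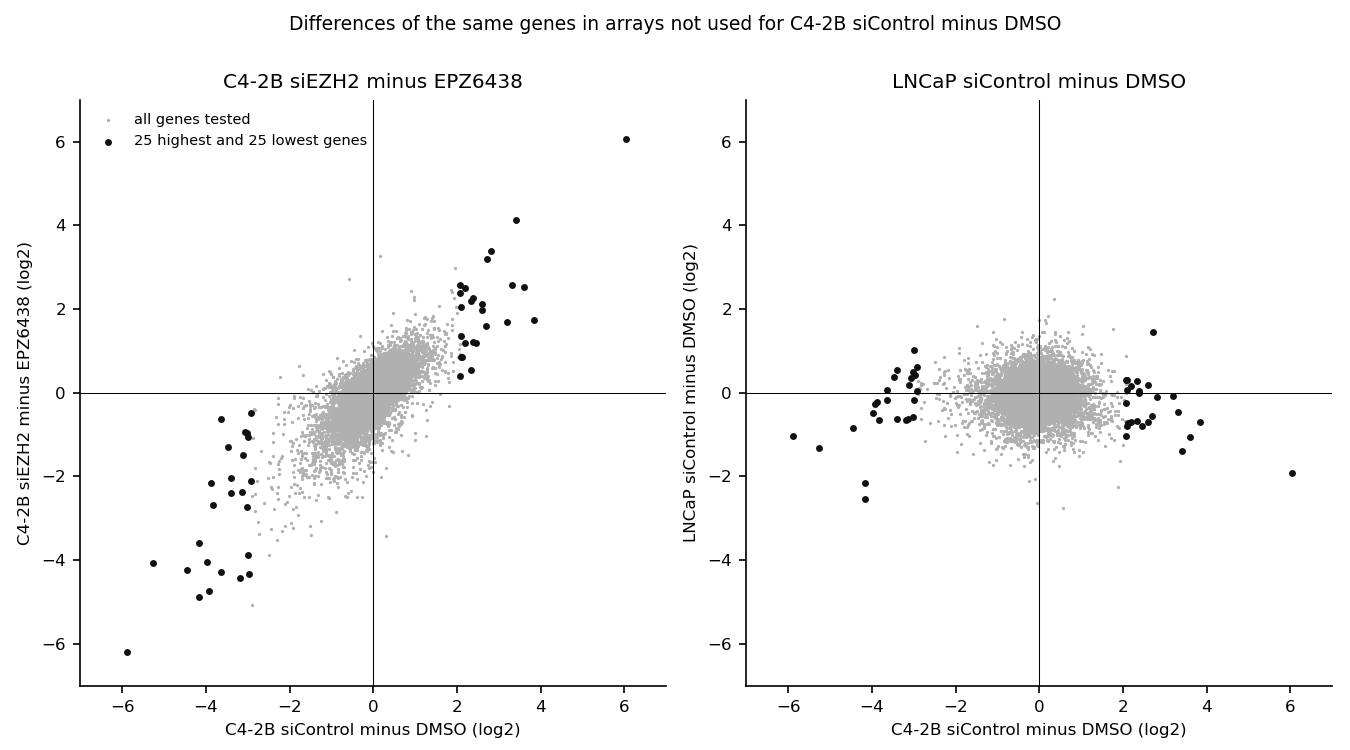
Differences of the 13789 genes between C4-2B siControl and DMSO cultures (horizontal axis, log2) against those between C4-2B siEZH2 and EPZ6438 cultures and against those between LNCaP siControl and DMSO cultures (vertical axes, log2). The points follow the diagonal in the first (r = 0.73) and show little slope in the second (r = 0.03).

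The comparisons that share arrays with these are given only side by side. EPZ6438 minus DMSO in C4-2B called 2093 genes (15.2%, 8.14% higher and 7.04% lower), siEZH2 minus siControl called 2572 (18.7%, 10.1% higher and 8.53% lower), and siControl minus DMSO called 5537. Group means of siControl and DMSO arrays correlated at 0.969 over genes, those of siControl and siEZH2 at 0.990, those of EPZ6438 and DMSO at 0.989, and those of siControl and DMSO in LNCaP at 0.986.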

How the data were processed

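RNA of LNCaP and C4-2B cultures was measured on 24 Illumina bead arrays (8 groups of 3). The deposited table holds a raw intensity and a detection p-value for each of 47311 probes, per the file headers, and the submitters' processing notes name GenomeStudio without a version. A second file of deposited, processed intensity values (lowest −14.3, each array's median 4.2) was used as an alternative, and its normalisation was not given in the sources used here. Every detection column matched its own array's intensities (24 of 24). Intensities were background-corrected and quantile-normalised with limma's neqc (limma 3.58.1, R 4.3.3 and the data.table package 1.17.8, offset 16), with negative controls inferred from the detection p-values, on all probes. Of the probes 30108 had 1 gene in GEO's platform annotation, 8 several and 17195 none, and symbols of 30069 were updated by Entrez ID. Probes detected at p under 0.05 on at least 3 arrays were kept (26278, of which 18826 had 1 gene), and each gene took its brightest probe. For called genes 80.8% of 2338 other kept probes had the same sign. One model of the 8 group means was fitted to 13789 genes with limma (16 residual and 7.43 prior degrees of freedom), and p-values were adjusted by Benjamini-Hochberg. The number of arrays limits the precision.

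A gene not detected on any array of one group has a bound: the mean of the detected group against, on each array of the other, the higher of its own value and the lowest value among detected probes. Named genes were the 25 highest and 25 lowest differences among called genes, the 10 highest and 10 lowest line differences, the 5 called members of each list with the largest differences (2 where none was called) and check genes, 213 in all. All other genes are named with their values already known. The comparison, the members and the 39 gene lists were chosen with earlier results of these data known. Of list members 63 had no probe annotated to them and 76 had none kept, and these were not analysed here. The replicate numbers were checked for pairing (see the closing section) and not used. On simulated data the test recovered 97% of 100 genes changed by 1 log2 unit and 49% of 100 changed by 0.5, and called 5 unchanged genes of 13789. Far fewer genes were changed there than the 40.2% called in the data, so these figures need not hold for the real comparison. Alternatives were 2 other scalings, no background correction, another offset, the processed values, other filters, the mean of a gene's probes, an intensity trend, the compared arrays alone, a replicate block and each replicate left out. The contrasts between the C4-2B comparisons and against EPZ6438 arrays were added after the data were seen.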

Additional observations from a re-analysis of the deposited data

Results flagged for a closer look

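The differences between siControl and DMSO cultures were not alike in the 2 lines. The C4-2B difference minus the LNCaP difference, tested as an interaction in the same fit, was called for 4705 genes. Among the 25 highest and 25 lowest genes of C4-2B and the 10 most positive and 10 most negative line differences, 53 were called. Of all genes 34.1% were called. These genes were chosen by the C4-2B difference, which is part of the line difference, or by the called line difference itself. Their count therefore describes the choice. Their line differences are given here on the log2 scale.

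The most positive were those of CCL20 (7.96), CCL8 (4.82), WLS (4.67), TXNIP (4.56), LCN2 (4.14), COX7B2 (3.78) and CCL2 (3.55). The LNCaP differences of CCL20, CCL8, LCN2 and CCL2 were −1.91, −1.40, −2.26 and −1.62. ZC3H12C (3.31), CCDC85A (3.27), SDCBP2 (3.25), UGT2B10 (3.13), PLPPR1 (2.91), MYB (2.90), ATP1B1 (2.42), CT45A1 (2.40) and TUBA4A (2.35) were also more positive in C4-2B.

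On the DNA replication list MCM4 (3.26), GINS2 (3.02), MCM10 (2.83) and FEN1 (2.32) were more positive, and so were EXO1 (2.89) and CDC25A (1.79), which are not on it. The histone gene H4C3 had a line difference of 3.32, made up of 0.57 in C4-2B and −2.75 in LNCaP. Its C4-2B value was 0.36 without siControl replicate 2 (adjusted p = 0.204) and 0.29 without DMSO replicate 2 (adjusted p = 0.274), and was then not called. The small nucleolar RNAs SNORD4A (2.04), SNORD16 (2.04) and SNORD15B (2.03) had similar values, and ID3 (1.77) and ID1 (1.27) the least positive ones.

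On the negative side stood CBLN2 (−4.86), KLK3 (−4.0), S100P (−3.96), NUPR1 (−3.95), SLC6A9 (−3.83), AZGP1 (−3.70), BCAT1 (−3.66), KIF1A (−3.66), RALYL (−3.61), RBM24 (−3.54) and ACOX2 (−3.53). PCDH7 (−3.49), INHBE (−3.47), CAPN5 (−3.42), TMPRSS2 (−3.41), CTH (−3.29), NIBAN1 (−3.18), FGF21 (−2.96), PCK2 (−2.82) and TSC22D3 (−2.76) followed. TFPI (−2.54), PRKACB (−2.52), DDIT4 (−2.44), EPHA3 (−2.03) and PLOD2 (−1.63) had smaller values.

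Of all 213 named genes 170 had a called line difference, where 34.1% of all genes did. In both lines 47 were called the same way and 59 opposite ways. The named genes were chosen in part by this difference, so these counts describe the choice.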

How the results depend on the processing

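The count of called genes between C4-2B siControl and DMSO cultures stayed within 1.5 times of 5537 under every setting tried except centring on the median of all probes, which gave 2439. The same centring gave 629 in LNCaP and 1315 for the difference between the lines, and for siEZH2 against EPZ6438 it gave 4984, with 4255 higher and 729 lower. Leaving out each replicate in turn gave 4840 to 5364 in C4-2B, 2760 to 3106 in LNCaP, 4220 to 4760 for the line difference and 5075 to 5330 for siEZH2 against EPZ6438. Centring on detected probes gave 4875, 2825, 3831 and 5857 in the same order, and the authors' processed values gave 5463, 3449, 4547 and 5537. The replicate block gave 5674, 3494, 4589 and 5651. Fits of only the arrays compared, without scatter from the other groups, gave 4828, 4694, 4942 and 5304. Same-numbered siControl and DMSO arrays deviated from their group means with correlations of 0.20, −0.05 and 0.13, so the numbers were not taken to pair the arrays. Of the 213 named genes none changed direction under these settings. Calls were lost for 49 under centring on the median of all probes, for 16 under centring on detected probes and for at most 11 under any other setting. EZH2 and SERPINB5 were called under some settings only. Levels near the lowest detected value limit what can be measured, and 717 of the genes tested were detected on none of the 6 arrays.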

Other observations

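With genes placed by RefSeq, several chromosomes had more lower than higher genes, where 19.0% of all genes were higher and 21.1% lower. The largest shares of lower genes were on chromosomes 9 and 18. Chromosomes 4 (14.6% higher and 28.7% lower), 6 (14.7% and 28.4%) and 21 (15.8% and 27.4%) were among the others. On chromosome 9 the 555 genes tested had a median difference of −0.21, with 7.39% higher and 38.6% lower, and on chromosome 18 the 192 genes had a median of −0.16, with 9.38% higher and 38.0% lower. Leaving out all genes of the lists gave −0.20 on chromosome 9 and −0.18 on chromosome 18. In siEZH2 minus EPZ6438 the chromosome 9 median was −0.15, and in LNCaP siControl minus DMSO it was 0.02. On chromosome 15, in contrast, 29.8% were higher and 13.4% lower, and on chromosome 1 25.8% were higher and 15.7% lower. The chromosome 9 median was below the gene-wise mean of the C4-2B arrays on every siControl array (−0.14 to −0.10) and above it on every DMSO array (0.07 to 0.12), and it lay at −0.10 to −0.07 on siEZH2 arrays and 0.08 to 0.10 on EPZ6438 arrays.

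Of 7452 kept probes without a single gene in the annotation, 884 were called higher and 582 lower in siControl cultures. Both shares are below those of the genes tested (19.0% higher and 21.1% lower).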
